A study of Homo sapiens with 12 samples.

Results

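Histones H2B, H3 and H4 are core proteins of the nucleosome, and 10 of the genes that encode their replication-dependent forms are described here in RKO cells, a human colon cancer line, kept for 24 hours in fed medium (400 uM arginine) or starved medium (12.5 uM arginine). The H2B genes are H2BC12 (ENST00000356950), H2BC5 (ENST00000289316), H2BC21 (ENST00000369155), H2BC4 (ENST00000314332) and H2BC11 (ENST00000339812). The H3 genes are H3C1 (ENST00000613854) and H3C2 (ENST00000621411), and the H4 genes are H4C1 (ENST00000617569), H4C3 (ENST00000377803) and H4C8 (ENST00000377727). They were chosen by a list of 14 Ensembl transcript identifiers that came paired with these gene names. Of these identifiers 11 were present, out of 19686 transcripts in the RNA table and 19849 in the footprint table, 1 for each gene except H2BC11. For H2BC11 both ENST00000339812 and ENST00000541790 were present. The former had more footprints and stands for the gene in all counts of genes, and the latter is called its second row. That both transcripts belong to H2BC11 rests on the list of identifiers alone and could not be checked against an annotation here.

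The cells were wild type per the labels, and every group grew in arginine-free DMEM with dialyzed serum to which arginine was added back. Plating in full medium came first, followed by a wash into the medium of either group. RNA-seq and ribosome profiling, which sequences the mRNA fragments (footprints) that ribosomes protect, were run side by side, with 3 libraries in each of the 4 groups. Separate cultures are not stated for them, and p-values therefore reflect only how far these libraries vary, which may be technical. Totals per library were between 4670881 and 7967215 for RNA and between 2063952 and 4364383 for footprints. Other transcripts carry no gene names in the tables, so markers of the cell type and genes of histone supply other than these 10 were not tested.

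Replication-dependent histone genes are transcribed in S phase, when new DNA needs new nucleosomes. Their mRNAs as a rule end in a stem-loop bound by SLBP instead of a poly(A) tail, and they are degraded when DNA synthesis stops. Whether each transcript listed here ends in that way was not tested. Histones are rich in the basic residues lysine and arginine, and the latter is the amino acid that was lowered here. The arginine content of the proteins of these genes was not examined, and whether it bears on any change below was not tested. The RNA libraries were prepared with a TruSeq RNA v2 kit, which as a rule captures polyadenylated RNA, so the RNA counts may hold only a part of the histone mRNA, and how large a part was not tested. Histone genes are also a family of near-identical copies, and reads shared between copies make the split of counts between the genes of 1 class uncertain in both assays. In these bulk samples fewer cells in S phase and less histone mRNA per cell cannot be told apart.

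The promoters of 8 of the 10 genes were found by symbol in the RefSeq windows for GRCh38.p14, and H4C1 and H4C3 are named only. The 130 bases before the start site are shown to print elements known from histone gene promoters, and no result here was tested against them. Capitals mark 3 motifs on either strand, with another marked in H4C8 alone. The octamer ATTTGCAT is known from H2B promoters as a binding site of the factor OCT1. The box CCAAT is bound by the general factor NF-Y in many promoters. The run TATAA belongs to the TATA box that sets the start of transcription. The short run GGTCC is the core of an element known from H4 promoters, and it is the motif capitalised in H4C8 alone.
H2BC12 (chr6:27146859-27146988, minus strand): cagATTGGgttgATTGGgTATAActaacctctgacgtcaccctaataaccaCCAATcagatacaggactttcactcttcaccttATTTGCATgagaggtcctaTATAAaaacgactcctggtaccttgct
H2BC5 (chr6:26157991-26158120, plus strand): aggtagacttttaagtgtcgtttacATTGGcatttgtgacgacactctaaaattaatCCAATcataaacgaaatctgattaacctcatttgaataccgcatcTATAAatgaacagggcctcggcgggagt
H2BC21 (chr1:149886683-149886812, minus strand): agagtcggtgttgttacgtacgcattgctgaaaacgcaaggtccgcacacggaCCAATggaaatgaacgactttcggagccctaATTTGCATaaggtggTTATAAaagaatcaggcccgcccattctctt
H2BC4 (chr6:26123927-26124056, minus strand): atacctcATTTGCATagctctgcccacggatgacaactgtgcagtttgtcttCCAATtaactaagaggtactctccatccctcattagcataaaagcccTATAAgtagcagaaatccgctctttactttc
H2BC11 (chr6:27132796-27132925, minus strand): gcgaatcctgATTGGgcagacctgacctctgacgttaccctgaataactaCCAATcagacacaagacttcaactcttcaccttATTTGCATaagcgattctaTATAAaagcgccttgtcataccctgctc
H3C1 (chr6:26020321-26020450, plus strand): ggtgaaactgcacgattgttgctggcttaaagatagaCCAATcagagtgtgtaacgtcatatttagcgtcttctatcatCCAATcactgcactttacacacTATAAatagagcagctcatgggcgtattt
H3C2 (chr6:26032100-26032229, minus strand): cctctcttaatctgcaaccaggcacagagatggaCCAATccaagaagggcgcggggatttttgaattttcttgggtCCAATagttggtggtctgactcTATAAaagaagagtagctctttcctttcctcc
H4C8 (chr6:26285535-26285664, minus strand): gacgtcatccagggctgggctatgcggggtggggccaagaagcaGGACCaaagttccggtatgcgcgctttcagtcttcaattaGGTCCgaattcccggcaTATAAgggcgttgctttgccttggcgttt
In the whole 300-base windows, which reach from 250 bases before to 50 bases after the start and were searched on both strands, the octamer was present in 4 of 5 H2B windows, in neither of the H3 windows and not in H4C8, against 1.80% of 27305 windows, 1 for each gene symbol. H2BC5 is the H2B gene without an exact match. CCAAT was present in all 5 H2B and both H3 windows and not in H4C8, against 35.7% of all windows. TATAA was present in all 8 windows, against 21.1% of all. GGTCC was present in H4C8, in 2 H2B windows and in 1 H3 window, against 46.1% of all. In H3C2, and in 1 of its matches in H2BC21, it overlaps a CCAAT. TTTCGCGC, a site of E2F factors, was present in H2BC12 and H2BC11 only, against 0.546% of all windows. These matches describe the letters of the windows and were not tested as binding sites.

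Ribosome footprints on all 10 genes fell under starvation. All 10 were called lower (edgeR quasi-likelihood test, Benjamini-Hochberg adjusted p under 0.05), against 20.9% of 13457 transcripts tested, and in all 10 every starved library lay below every fed library, which held for 26.2% of transcripts. The median log2 fold change, starved over fed, was -1.30 over the 10 genes and 0.05 over all transcripts tested. By class the medians were -1.41 for H2B, -1.14 for H3 and -0.47 for H4. The 11 rows together took 1.47%, 1.49% and 1.64% of all footprint counts in the 3 fed libraries and 0.720%, 0.650% and 0.734% in the 3 starved libraries. Histone footprints thus made up a smaller part of every starved library than of any fed library.

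**Figure D1:**
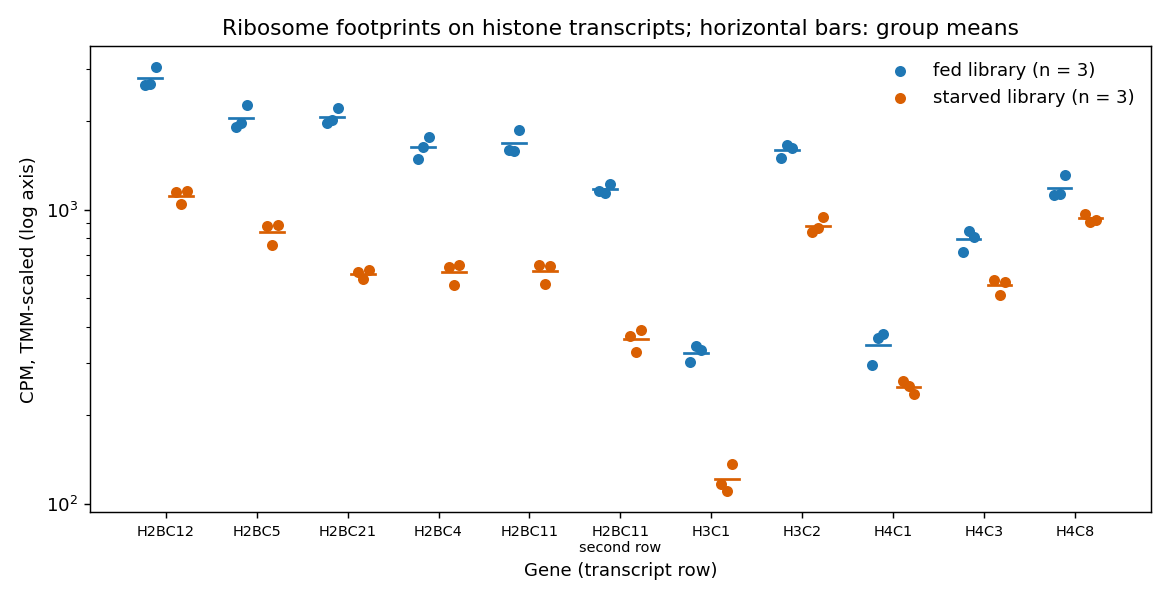
Footprints on each histone row in CPM (TMM-scaled, log axis) for the 3 fed (blue) and 3 starved (orange) libraries, with group means as bars. For each row all starved points lie below all fed points, and the gap is wider for the H2B rows and H3C1 than for the H4 rows.

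The H2B genes encode a core histone that pairs with H2A. CPM are counts scaled to library size with TMM factors. Replicates 1 to 3 are given in that order, and since transcript lengths were not used, levels are compared between conditions and not between genes. Footprints on H2BC12 were 2642, 2672 and 3046 CPM in fed and 1149, 1045 and 1154 CPM in starved libraries, a log2 change of -1.32 (SE 0.10, adjusted p = 2.22e-06). The fed libraries differ among themselves by far less than the gap to the starved ones. H2BC21, which lies on chromosome 1 while the other genes with a window lie on chromosome 6, had 1969.7, 2015 and 2221 CPM in fed and 612, 581 and 623 CPM in starved libraries. Its log2 change of -1.77 (SE 0.10, adjusted p = 3.28e-07) was the lowest of the 10, and only 1.37% of all transcripts tested had a lower one. H2BC5 had 1905, 1963 and 2261 CPM in fed and 877, 756 and 885 CPM in starved libraries, a change of -1.28 (SE 0.11, adjusted p = 4.52e-06). H2BC4 went from 1628 ± 142 to 613 ± 49.9 CPM (SD, n = 3), a change of -1.41 (SE 0.11, adjusted p = 2.34e-06). H2BC11 went from 1678 ± 159.7 to 617 ± 51.4 CPM (SD, n = 3), a change of -1.44 (SE 0.11, adjusted p = 2.22e-06), and its second row from 1172 ± 39.4 to 363 ± 31.7 CPM, a change of -1.69 (SE 0.11, adjusted p = 5.41e-07). All H2B rows were therefore between 2.43-fold and 3.42-fold lower in starved cells.

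Within the H2B class the mix of footprints moved a little. The share of H2BC21 in the footprints on H2B rows went from 18.2 ± 0.216% in fed to 14.6 ± 0.524% in starved libraries (SD, n = 3), and that of the second row of H2BC11 from 10.3 ± 0.467% in fed to 8.74 ± 0.195% in starved libraries (SD, n = 3). The share of H2BC12 went from 24.5 ± 0.181% in fed to 26.9 ± 0.394% in starved libraries (SD, n = 3), and that of H2BC5 from 17.9 ± 0.287% in fed to 20.2 ± 0.357% in starved libraries (SD, n = 3). For these 4 rows the fed and starved libraries did not overlap. For H2BC4 and the main H2BC11 row they did. These shares add to the whole, so the falls and rises are not separate observations. Reads shared between near-identical copies also make this split uncertain.

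The H3 genes encode the core histone that carries much of the known methylation and acetylation of chromatin, and their footprints changed by unlike amounts. Footprints on H3C1 were 303, 345 and 332 CPM in fed and 117, 111 and 136 CPM in starved libraries, a log2 change of -1.43 (SE 0.13, adjusted p = 4.59e-06). Footprints on H3C2 were 1499, 1660.2 and 1616 CPM in fed and 839, 865 and 942 CPM in starved libraries, a change of -0.85 (SE 0.10, adjusted p = 4.94e-05). The 95% confidence interval was -1.70 to -1.15 for H3C1 and -1.07 to -0.63 for H3C2, and the intervals do not overlap. H3C1 made up 16.8% to 17.2% of the footprints on the H3 pair in fed libraries and 11.3% to 12.6% in starved libraries. The difference between the pair was not tested otherwise.

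The H4 genes encode the partner of H3, and H4 proteins from different genes are known to be nearly all identical. Footprints on H4C8 were 1118, 1133 and 1312 CPM in fed and 967, 910.1 and 922 CPM in starved libraries, a log2 change of -0.35 (SE 0.11, adjusted p = 0.0200). Footprints on H4C3 were 719.7, 849 and 806 CPM in fed and 577, 513 and 567 CPM in starved libraries, a change of -0.52 (SE 0.11, adjusted p = 0.00282). Footprints on H4C1 were 296, 365 and 378 CPM in fed and 261, 252 and 237 CPM in starved libraries, a change of -0.47 (SE 0.13, adjusted p = 0.0107). The groups did not overlap for any of the 3 genes, yet the gap was narrow for H4C1, whose lowest fed library lay close to the highest starved one. The H4C8 and H4C1 calls were lost once the trend of fold change with abundance was removed from each library, at -0.22 (edgeR adjusted p = 0.136) and -0.30 (edgeR adjusted p = 0.0627). The H4C8 call was also lost without fed replicate 3 (-0.30, adjusted p = 0.0683), without starved replicate 2 (-0.33, 0.0536) and without starved replicate 3 (-0.34, 0.0554), all by edgeR.

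Footprints on H4 genes fell less than those on H2B genes. The highest upper bound among the 95% confidence intervals of the H2B genes was -1.04, for H2BC5, and the lowest lower bound among those of the H4 genes was -0.76, for H4C3. H2B rows held 73.2%, 71.7% and 73.6% of the footprints on the 11 rows in fed libraries and 60.9%, 59.1% and 60.8% in starved libraries. H4 rows held 14.5%, 15.3% and 14.8% in fed libraries and 25.6%, 25.9% and 24.2% in starved libraries. H3 rows went from 12.3 ± 0.738% to 14.6 ± 0.892% (SD, n = 3). The footprint shares of all 3 classes were separate between fed and starved libraries. These shares add to the whole, so the rise of the H4 share and the fall of the H2B share are 1 observation. In RNA the H2B share also fell, from 50.4 ± 3.23% in fed to 43.8 ± 2.66% in starved libraries (SD, n = 3). The H4 share of RNA rose from 45.9 ± 3.06% to 52.8 ± 2.82% (SD, n = 3). Fed and starved RNA shares were separate for H2B and H4 and overlapped for H3.

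**Figure D2:**
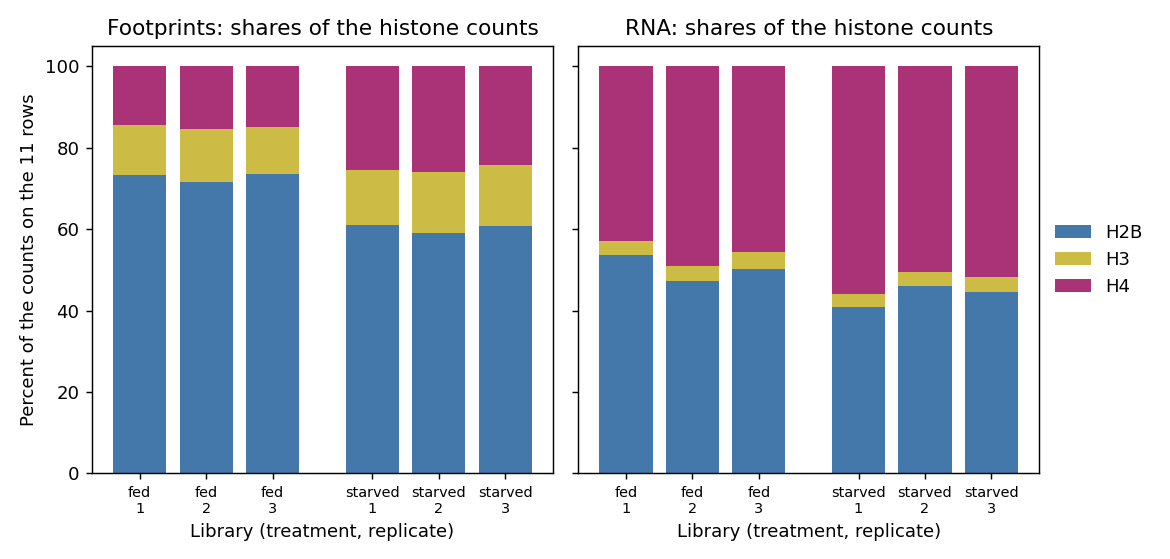
Percent of the counts on the 11 histone rows that fell on H2B, H3 and H4 rows in each library, for footprints (left) and RNA (right). In footprints the H4 part is between 14.5% and 15.3% in fed and between 24.2% and 25.9% in starved libraries. In RNA it is between 43.0% and 49.1% in fed and between 50.6% and 56.0% in starved libraries.

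RNA of the 10 genes also fell. All 10 were called lower by the same edgeR test, against 34.1% of 11572 transcripts tested. In 7 of 10 genes every starved library lay below every fed library, against 34.8% of transcripts. H2BC12, H3C2 and H4C8 are the genes whose groups overlapped. The median log2 fold change was -0.83 over the 10 genes and -0.01 over all transcripts tested. Instead of 10 genes, 7 were called by DESeq2's Wald test, 8 with the abundance trend removed and 7 without starved RNA replicate 2, the library with the lowest level for 9 of the 10 genes.

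**Figure D3:**
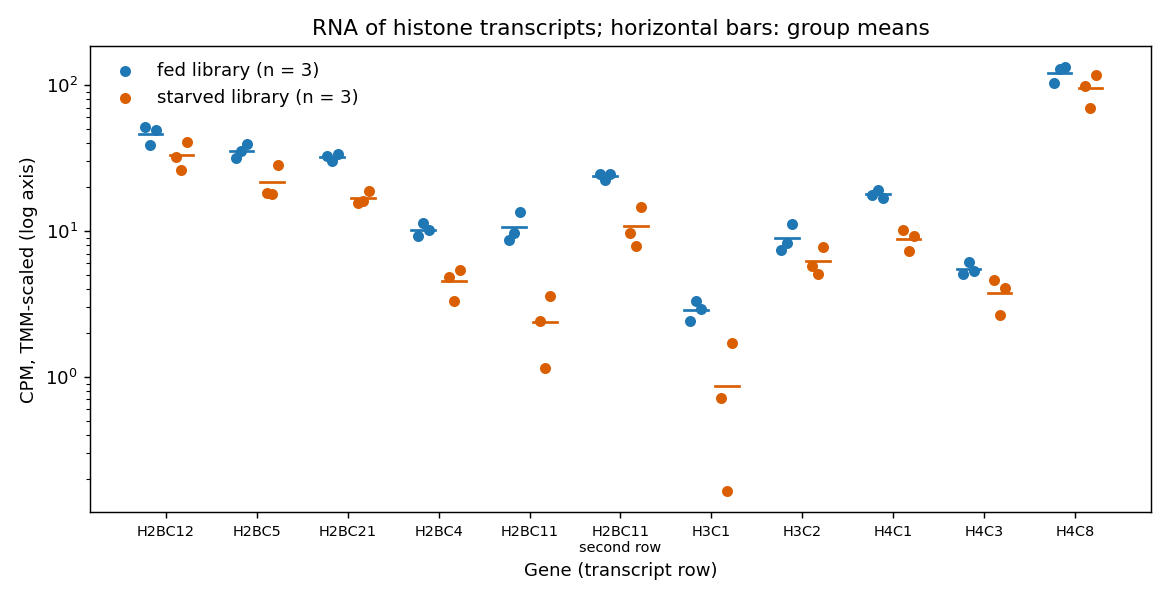
RNA of each histone row in CPM (TMM-scaled, log axis) for the 3 fed (blue) and 3 starved (orange) libraries, with group means as bars. Starved points lie lower for every row on average, groups overlap for H2BC12, H3C2 and H4C8, and 1 starved library of H3C1 sits far below the others at 0.165 CPM, a single count.

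Among H2B genes the RNA changes ran from -0.51 to -2.13 and the footprint changes from -1.28 to -1.77. The wider spread in RNA rests largely on the main H2BC11 row. It had 216 RNA counts summed over fed and 47 over starved libraries, against 204 and 89 for H2BC4. With the second row in its place the lowest RNA change was -1.16. H2BC12 RNA was 51.3, 38.8 and 49.2 CPM in fed and 32.3, 26.2 and 40.6 CPM in starved libraries, a log2 change of -0.51 (SE 0.11, adjusted p = 3.51e-05). H2BC21 RNA was 32.6, 30.2 and 33.9 CPM in fed and 15.6, 16.1 and 18.8 CPM in starved libraries, a change of -0.94 (SE 0.12, adjusted p = 1.71e-10). For H2BC12 the highest starved library passed the lowest fed one, while for H2BC21 the groups were well apart. H2BC5 RNA was 31.7, 35.6 and 39.3 CPM in fed and 18.2, 18.0 and 28.4 CPM in starved libraries, a change of -0.72 (SE 0.12, adjusted p = 5.62e-07). H2BC4 RNA was 9.17, 11.3 and 10.1 CPM in fed and 4.86, 3.29 and 5.44 CPM in starved libraries, a change of -1.14 (SE 0.20, adjusted p = 6.46e-07). For both genes the groups were separate. H2BC11 had 72, 47 and 97 RNA counts in fed and 17, 7 and 23 in starved libraries, a log2 change of -2.13 (SE 0.24, adjusted p = 4.73e-12). Its second row had 205, 109 and 177 and 68, 48 and 94 counts and a change of -1.16 (SE 0.15, adjusted p = 2.47e-10). The 2 rows listed under H2BC11, if both are indeed of that gene, give RNA changes whose 95% confidence intervals, -2.61 to -1.66 and -1.45 to -0.87, do not overlap.

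RNA of the H3 genes was scarce. H3C1 had 20, 16 and 21 counts in fed and 5, 1 and 11 counts in starved libraries, a log2 change of -1.67 (SE 0.38, adjusted p = 1.27e-04). With so few counts single libraries moved the value: it was -1.22 without starved replicate 2 (edgeR adjusted p = 0.00436) and -2.56 without starved replicate 3 (edgeR adjusted p = 1.41e-06). H3C2 had 61, 40 and 80 counts in fed and 40, 31 and 50 in starved libraries, a change of -0.52 (SE 0.19, adjusted p = 0.0146). Its call was lost without fed replicate 3 (-0.31, edgeR adjusted p = 0.196), starved replicate 1 (-0.45, 0.0603) or starved replicate 2 (-0.40, 0.0760).

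Among the H4 genes H4C1 RNA fell further than its footprints. It was 17.7, 19.1 and 16.8 CPM in fed and 10.2, 7.25 and 9.17 CPM in starved libraries, a log2 change of -0.995 (SE 0.15, adjusted p = 4.06e-08), and the groups were well apart. H4C8, the member with the most RNA counts, had 104, 129 and 133 CPM in fed and 99.1, 70.0 and 116 CPM in starved libraries. Its change of -0.35 (SE 0.09, adjusted p = 8.47e-04) was -0.17 without starved replicate 2 (edgeR adjusted p = 0.0741) and, at nearly the same size by DESeq2 (-0.35), was not called there (adjusted p = 0.197). H4C3 had 42, 30 and 38 counts in fed and 32, 16 and 26 in starved libraries and a change of -0.51 (SE 0.23, adjusted p = 0.0429). The H4C3 call was lost on leaving out any 1 library other than starved replicate 1, with changes from -0.57 to -0.32 (edgeR adjusted p 0.0543 to 0.263).

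The ratio of footprints to RNA was far above that of most transcripts for all 10 genes. In fed cells the ratio of mean footprint CPM to mean RNA CPM was 179 for H3C2, 159 for H2BC4, 158 for H2BC11, 144 for H4C3 and 114 for H3C1. It was 64.2 for H2BC21, 60.0 for H2BC12 and 57.5 for H2BC5, and lowest for H4C1 (19.4) and H4C8 (9.75). The second row of H2BC11 had a ratio of 49.0 in fed and 33.8 in starved cells, so the place of H2BC11 in this order depends on the row used. The median over 11027 transcripts tested in both assays was 0.929, and 2.10% of them had a ratio above 10. Even H4C8 stood above 97.8% of these transcripts. In starved cells the ratio was lower than in fed cells for H2BC12 (33.8), H2BC5 (39.0), H2BC21 (35.9), H2BC4 (135) and H3C2 (142). It was higher for H2BC11 (258), H3C1 (140.3) and H4C1 (28.2), and close to the fed value for H4C3 (147) and H4C8 (9.80), against a median of 0.869. These ratios describe the libraries as deposited, and the part of RNA capture in them was not tested.

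**Figure D4:**
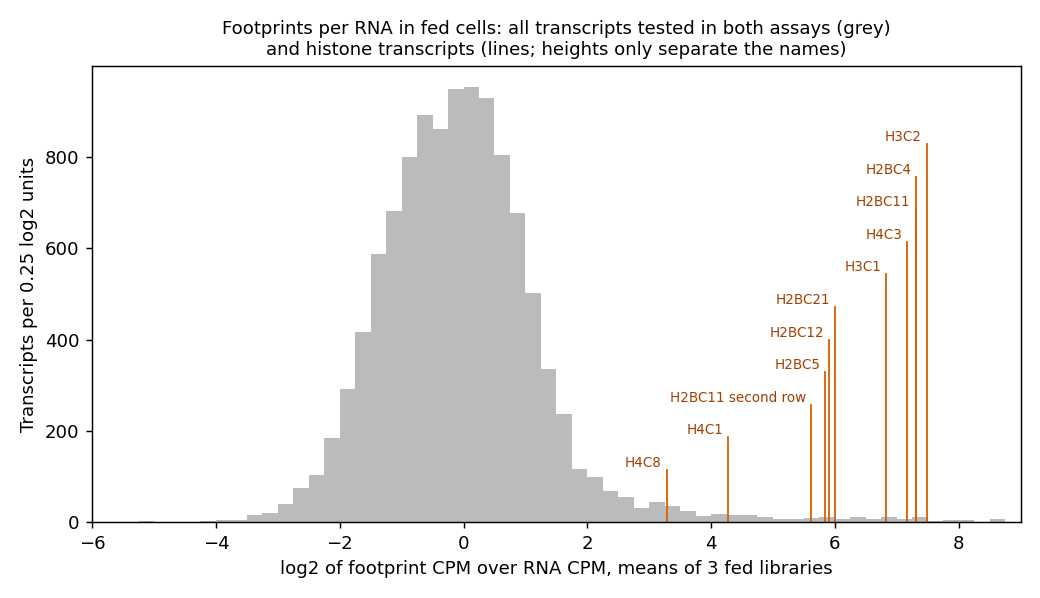
Number of transcripts (grey, 11027 in all) by log2 of the ratio of footprint CPM to RNA CPM in fed cells, with the histone rows as lines whose heights only separate the names. All histone rows lie in the right tail, with H4C8 nearest to the bulk at a ratio of 9.75.

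The yield of footprints per RNA counted, or translational efficiency, was called lower for 2 H2B genes and higher for 1 H4 gene. The RNA counts may hold only a part of the histone mRNA, and whether that part changed under starvation was not tested. The test is the interaction of assay and treatment in 1 edgeR quasi-likelihood model over all 12 libraries, with Benjamini-Hochberg adjustment over 11027 transcripts. Lower efficiency was called for 11.8% and higher efficiency for 11.1% of these transcripts, so a count of 3 among 10 genes is close to the background. The median change was -0.05 over the 10 genes and -0.02 over all transcripts. H2BC21 had a change of -0.74 (SE 0.15, adjusted p = 0.00110) and H2BC12 one of -0.73 (SE 0.19, adjusted p = 0.00757), and both calls held in all 21 alternatives. H4C1 had a change of 0.62 (SE 0.18, adjusted p = 0.0198), which was lost without fed RNA replicate 2 (0.58, edgeR adjusted p = 0.0566) and without starved RNA replicate 2 (0.48, 0.0893).

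The other 7 genes did not pass the efficiency test, which does not show that their efficiency was the same. The 95% confidence interval of the log2 change was -0.89 to -0.05 for H2BC5, -0.65 to 0.30 for H2BC4, -0.69 to 0.20 for H3C2 and -0.53 to 1.18 for H3C1. For H4C3 it was -0.39 to 0.57 and for H4C8 -0.31 to 0.49. The 2 rows listed for H2BC11 gave opposite values, 0.77 (SE 0.31, adjusted p = 0.0739) for the main row and -0.45 (SE 0.20, adjusted p = 0.119) for the second row, so no direction is given for that gene, and whether both rows belong to it could not be checked. The main row was called higher in 6 of 21 alternatives, with adjusted p from 0.0254 to 0.307.

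**Figure D5:**
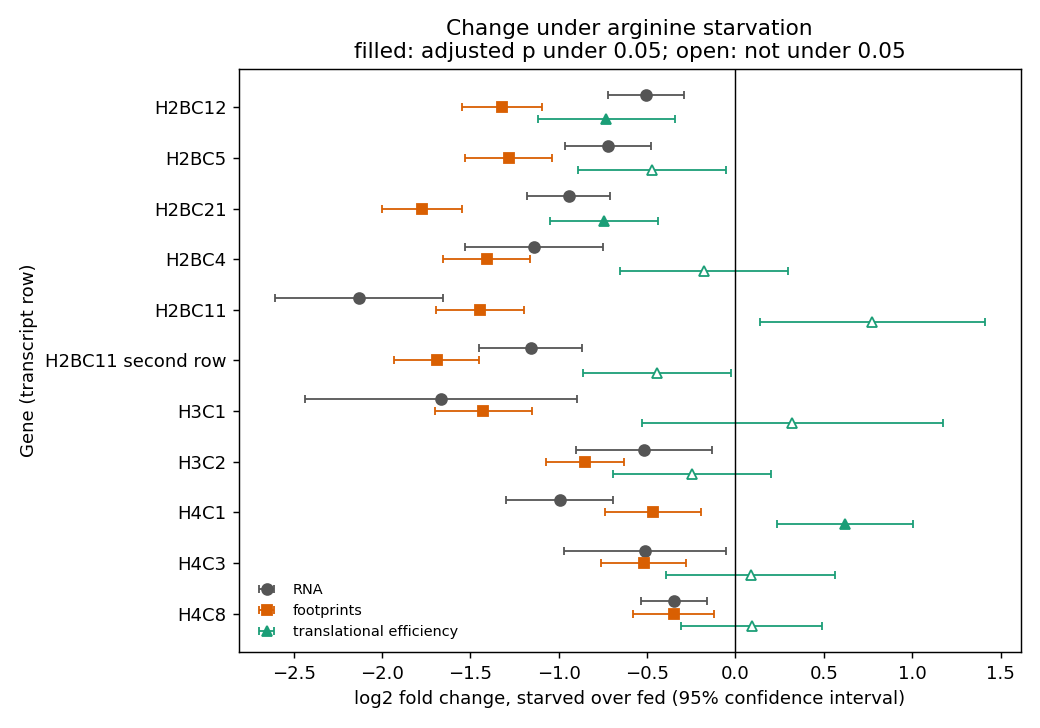
Log2 fold change, starved over fed, with 95% confidence interval for RNA (grey circles), footprints (orange squares) and translational efficiency (green triangles) of each histone row, with filled symbols for an edgeR adjusted p under 0.05. All RNA and footprint symbols lie left of 0 and are filled, and of the efficiency symbols those of H2BC12, H2BC21 and H4C1 are filled.

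Over the 12 libraries the members followed a common profile, which includes the fall from fed to starved libraries given above. After centring log2 CPM within assay, Pearson's r with the mean profile of the 10 genes ran from 0.881 (H4C1) to 0.991 (H2BC4). It is a description in which each gene is part of the mean and all values share the same libraries. Centring was not done within treatment, so a high r can come from that fall alone and is no separate result. Among 7015 other transcripts whose log2 CPM averaged 4 or more in each assay, the closest to this profile were ENST00000545683 (r = 0.991 over 12 libraries) and ENST00000304218 (r = 0.986), whose gene names the tables do not give. ENST00000545683 went from 2132 to 859.6 CPM in footprints and from 26.9 to 11.5 CPM in RNA, means of 3 libraries. ENST00000304218 went from 2486 to 614 CPM in footprints and from 43.4 to 15.9 CPM in RNA. Since both were picked for likeness to a profile that includes the fall, their falls are no separate result. Both, like the 10 genes, had many footprints for their RNA level, and whether they are histone transcripts themselves could not be checked.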

How the data were processed

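The deposited values are raw read counts per transcript, 1 table per assay, as the authors left them; that they are whole and differ in total between libraries was checked. The submitters' processing notes name cutadapt, STAR, UMI-tools, DESeq2 and GRCh38.p13 without saying what each was used for. What tool counted the reads, with which annotation and how multi-mapping reads were treated is not given in the sources used here. RNA and footprints were tested separately in edgeR 4.0.16 (R 4.3.3) with filterByExpr, TMM factors and treatment as the only term, by a two-sided quasi-likelihood test adjusted by Benjamini-Hochberg over all transcripts tested; adjusted p-values in the text are from this test unless another tool is named. For translational efficiency, TMM factors came from the transcripts kept in both assays. Log2 CPM for the common profile used a prior count of 2. Alternatives were run with other scalings, filters and blocks, with DESeq2 1.42.0 and limma 3.58.1, and with each library left out. No pair of replicates was identical, and the edgeR tests were checked on simulated data. The 10 genes, all tested in both assays, and the lists were chosen with earlier results of these data known. The naming rule takes all 10 genes and the 2 other transcripts most like them. Of 19849 identifiers, 0 matched the gene tables. Counting precision is limited by depth, which the counts printed with low values show.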

Additional observations from a re-analysis of the deposited data

How the results depend on the processing

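In all alternatives for RNA and footprints the 10 genes kept their direction, with 7 to 10 called lower in RNA and 8 to 10 in footprints. Library totals without TMM factors shifted the median RNA log2 fold change of all transcripts by -0.11. Without a filter on low counts the footprint median moved by 0.10, but it was then taken over 18750 transcripts instead of 13457. The number of genes with higher translational efficiency was 1 in the main test. It was 2 with library totals, 2 with the Wald test of DESeq2 and 2 with a replicate block within treatment, H2BC11 being the added gene. Over all 11027 transcripts, higher efficiency was called for 1227 in the main test. The same alternatives gave 1472, 961 and 1208 of them, and library totals moved the median efficiency change by 0.075. Leaving out 1 library gave 0 to 2 of the 10 genes. The number with lower efficiency, 2, was 3 with the replicate block within treatment and 3 with TMM factors from each assay's own transcripts. H2BC5 was the added gene in both. Over all 11027 transcripts, lower efficiency was called for 1296 in the main test, 1285 with that block and 1740 with each assay's own factors. The own factors also moved the median efficiency change of all transcripts by -0.083. The alternative with each assay's own factors and the other H2BC11 row were chosen after seeing the data. Efficiency changes near 0 turned sign: H4C3 to -0.12 with the abundance trend removed, -0.0017 with each assay's own TMM factors and -0.12 without starved RNA replicate 2; H3C1 to -0.14 and H4C8 to -0.11 without the same library; and H4C8 to -0.0019 without fed RNA replicate 3. Leaving out 1 library moved H3C1 up to 1.20, H4C3 up to 0.24 and H4C8 up to 0.25. The cause was not tested. Samples with the same replicate number were not treated as pairs in the main tests. Correlations of their deviations from the group means ran from -0.262 to 0.293 and did not all pass 0.1. These correlations cannot decide whether the samples were paired, since deviations from a mean of so few libraries constrain each other. With the replicate block 10 genes were called lower in RNA, 9 in footprints (H4C8 at -0.35, edgeR adjusted p = 0.0555), and 2 lower and 1 higher in efficiency. Low RNA counts, above all on H3C1, and RNA counts that may hold only a part of the histone mRNA limit what can be said of efficiency.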
